A study of Mus musculus with 6 samples.

Results

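The 39 genes described here encode proteins of DNA repair and the DNA damage checkpoint. They were selected by symbol, as genes of homologous recombination, Fanconi anemia, mismatch repair and the checkpoint kinases, among the 46517 gene identifiers of the read count files, and all 39 were found and passed the filter on low counts. RNA sequencing was performed on primary cultured renal tubule epithelial cells (RTECs), which are cells grown from the digested kidneys of wild-type FvB mice. All 6 cultures spent 24 h in serum-free medium, after which 3 were treated with transforming growth factor (TGF)-β1 at 50 ng/ml for 24 h and 3 served as untreated controls (CTL). The mice were 4 to 6 weeks old by the sample labels, and neither labels nor methods say how many mice a culture came from. p-values therefore measure the spread between these cultures, which may be partly technical. The study's methods give a slightly younger age range and describe male donors. Y-linked transcripts were almost absent from 4 of the 6 cultures, as given below. The comparison addresses what TGF-β1, a profibrotic cytokine, does to the transcripts of tubule cells.

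Homologous recombination mends broken DNA by copying the intact sister chromatid, so it works mainly in cells that are replicating or have replicated their genome. Nucleases first resect the broken ends, BRCA1 with BARD1 and then BRCA2 with PALB2 prepare them for strand exchange, and helicases and translocases of the RAD54 family help the broken strand to invade its template. The Fanconi anemia proteins detect crosslinks between the DNA strands during replication and add ubiquitin to FANCD2 and FANCI, which calls in nucleases. Mismatch repair removes copying errors, and the kinases ATR and ATM signal stalled forks and breaks to CHEK1 and CHEK2. Many of these genes are transcribed most in S phase.

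Because many replication genes share E2F sites, and many cell cycle genes share CCAAT boxes, the promoters of the members were searched for both. RefSeq promoter windows (GRCm38.p6, 250 bases before to 50 after a start site) matched 32 of the 39 members with 35 windows. No window was matched for Rad54b, Xrcc2, Nbn, Rad50, Rbbp8, Exo1 or Fancd2. The E2F words TTTGGCGC, TTTCCCGC, TTTGCCGC and TTTCGCGC, on either strand, occurred in 8 of the 35 windows (22.9%), in 2.26% of the 32851 windows of all genes and in 43.5% of the windows of S phase genes. Of the 11 windows of members lower with the replicate block described below, 1 held an E2F word, and of the other 24 windows 7 did. CCAAT, on either strand, occurred in 65.7% of the members' windows and in 37.4% of all windows. It occurred in 63.6% of the windows of members lower with the block and in 66.7% of the other members' windows. The words TTTGAA and TTCGAA, of the CHR element of late cell cycle genes, occurred in 11.4% of the members' windows, 19.2% of all windows and 75% of the windows of mitosis genes. No word of 1 motif contains a word of another. These matches are a description of the letters in the windows. The 250 bases before the start site are printed for 3 members whose transcripts are described below, Brca2 (chr5:150522371-150522620, plus strand) with its E2F word in capitals, and Rad51ap1 (chr6:126939588-126939837, minus strand) and Fanca (chr8:123318577-123318826, minus strand) with their CCAAT words, or the reverse complement, in capitals.
Brca2: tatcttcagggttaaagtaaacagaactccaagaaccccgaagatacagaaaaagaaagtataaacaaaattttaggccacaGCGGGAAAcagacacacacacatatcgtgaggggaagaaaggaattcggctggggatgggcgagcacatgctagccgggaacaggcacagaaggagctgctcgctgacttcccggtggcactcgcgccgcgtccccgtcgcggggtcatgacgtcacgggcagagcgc
Rad51ap1: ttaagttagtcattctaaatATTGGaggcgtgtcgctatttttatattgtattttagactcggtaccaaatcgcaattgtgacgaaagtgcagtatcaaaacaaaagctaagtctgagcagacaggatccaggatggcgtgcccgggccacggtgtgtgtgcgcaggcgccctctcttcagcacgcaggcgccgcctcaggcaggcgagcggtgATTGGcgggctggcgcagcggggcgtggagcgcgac
Fanca: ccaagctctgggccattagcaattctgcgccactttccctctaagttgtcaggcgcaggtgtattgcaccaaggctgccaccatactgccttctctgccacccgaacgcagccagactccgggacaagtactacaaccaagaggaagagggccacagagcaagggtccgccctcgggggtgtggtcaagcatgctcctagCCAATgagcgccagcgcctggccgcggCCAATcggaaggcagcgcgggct

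Counts on genes totalled 28313080 to 34183497 per library, and 3 counts correspond to 0.0878 to 0.106 CPM (read counts scaled by the library's total on genes). Levels are given below as CPM after TMM scaling of the library sizes. The TGF-β1 response was present, since 6 of 8 listed response genes rose, where 5.00% of all genes tested did. The other 2 did not pass, and 1 of the 8 lay below 0. Among those that rose, Fn1, which encodes fibronectin, had a log2 fold change of 1.04 (SE 0.09, edgeR adjusted p = 0.00379). The replicate numbers of the labels paired the cultures, and values from the same fit with the replicate number as a block are given beside the results. The replicate 2 cultures stood apart from the other 4, with Y-linked transcripts summing to 142 and 151 CPM against at most 0.172 CPM elsewhere and Xist at 207 and 237 CPM against 516 to 634 CPM. The near absence of Y-linked transcripts from the other 4 cultures is at odds with the male donors that the methods describe. Sex-linked transcripts thus differed between replicate numbers, with both Y-linked transcripts and Xist present in replicate 2. The sex of the donors behind each culture was not tested. Of 7 tubule epithelium markers 2 fell (28.6%, against 6.69% of all genes), Cdh16 at -1.50 (edgeR adjusted p = 0.00922) and Pax8 at -0.77 (edgeR adjusted p = 0.00436). With the block 5 fell (71.4%, against 19.1% of all genes). The list summed to 1060 to 2637 CPM in CTL and 916 to 2185 CPM with TGF-β1, lowest in replicate 2 of both groups. Of 8 proximal tubule markers tested 3 fell, and 6 with the block (37.5% and 75%). The 12 listed summed to 92.5 to 138.7 CPM in CTL and 47.9 to 58.4 CPM with TGF-β1, with no overlap. Among the 12, the defining proximal tubule transporters Slc34a1, Slc5a2, Slc22a6 and Slc22a8 had group means under 0.25 CPM in both groups. The 10 fibroblast markers summed to 1519 to 2905 CPM in CTL and 1795 to 3767 CPM with TGF-β1, and their sum was highest in replicate 2 of both groups. Of the 9 fibroblast markers tested, 0 passed without the block, and 3 fell and 3 rose with it. Their log2 fold changes ran from -1.34 to 0.83. The 5 collecting duct markers summed to 9.66 to 22.6 CPM in CTL and 30 to 57.4 CPM with TGF-β1. Of the 2 of them tested 1 rose, and with the block 1 rose and 1 fell. Loop and distal tubule markers summed to 2.1 to 4.58 CPM, endothelial markers to 2.49 to 4.77 CPM and leukocyte markers to 6.83 to 21.3 CPM.

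With TGF-β1, 6 of the 39 members fell and 1 rose. Rad54b, Fancd2, Rad51ap1, Bard1, Brip1 and Brca1 were lower, by log2 fold changes of -1.81 to -0.64, and Mus81 was higher by 0.31. That is 15.4% of the members lower, where 6.69% of the 15862 genes tested were lower and 5.00% were higher at the same threshold (edgeR quasi-likelihood test, Benjamini-Hochberg adjusted p under 0.05). With the replicate block, 13 members were lower, adding Exo1, Eme1, Fanci, Fanca, Rad54l, Chek1 and Slx4, and Mus81 was again the 1 higher member. The block raised the background too, to 19.1% of all genes lower and 15.1% higher, against 33.3% of the members lower. The other 25 members passed the threshold in neither fit, with log2 fold changes of -0.35 to 0.25. Without the block, 1 or 2 members fell and none rose whichever culture was left out, and fewer of all genes fell too. It was 2 members without CTL replicate 2, CTL replicate 3 or TGF-β1 replicate 2, beside 3.79%, 4.98% and 4.28% of all genes. It was 1 member without TGF-β1 replicate 1 or 3, beside 1.19% and 3.49%. Leaving out CTL replicate 1 also gave 1 member, beside 186 of 16150 genes. With the block, 7, 9 and 14 members fell when both cultures of replicate 1, 2 or 3 were left out, beside 10.3%, 17% and 20.3% of all genes. The median over the members was -0.13, and over all genes tested 0.00.

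Of the 13 members lower with the block, 6 belong to the recombination group and 3 to the Fanconi group, Fancd2, Fanci and Fanca. Each member was counted in 1 role group only, although some products act in more than 1. The genes of the end-binding MRE11-RAD50-NBN complex, Rad51b, Rad51c, Xrcc2 and Xrcc3, the mismatch genes and 4 of the 5 checkpoint genes did not pass in either fit. By role, 50% of recombination, 27.3% of Fanconi, 20% of checkpoint and 16.7% of end resection members were lower with the block. The share was 66.7% for the 3 nuclease members, 0% for the 2 mismatch members and 19.1% for all genes. Without the block, 41.7% of recombination and 9.09% of Fanconi members were lower, and 0% in the other roles, against 6.69% of all genes. CTL and TGF-β1 cultures did not overlap for 15 members in the lower direction, where 18.0% of all genes behaved so, and for 1 member in the higher direction, where 17.2% of all genes did. Of the members, 21 were lower in all 3 same-numbered pairs, against 32.6% of all genes. Among the 13 members lower with the block, the deepest fall was in pair 2 for 9, in pair 1 for 3 and in pair 3 for 1. The share of all genes with their deepest fall in pair 2 was not computed. The median of the S phase list given below was also lowest in pair 2, at -0.64 against -0.47 and -0.25 in pairs 1 and 3. For the mitosis list these medians were -2.02 against -1.59 and -1.43. In bulk RNA, fewer cells of a kind and less RNA per cell cannot be told apart.

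**Figure D1:**
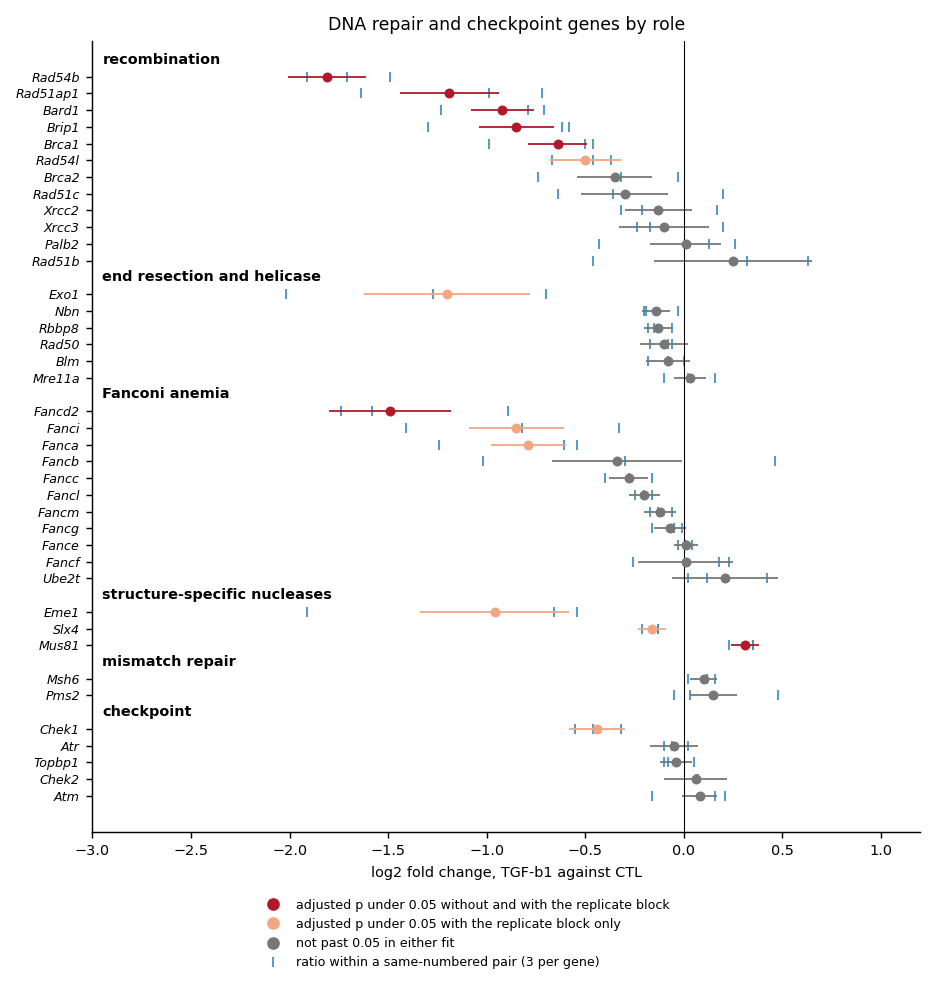
Log2 fold change of each of the 39 members, TGF-β1 against CTL, on the x axis, by role. Points are edgeR estimates with bars of 1 SE, coloured by whether the gene passed without and with the replicate block, and blue ticks are the ratios within the 3 same-numbered pairs. The recombination group reaches -1.81, and most genes of the other groups lie close to 0.

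Of the 12 recombination members, 5 fell, 6 with the block, and none rose. Rad54b (ENSMUSG00000078773.10, GRCm38 chromosome 4, 11558922 to 11615805, plus strand), a RAD54-family translocase, was at 1.46, 1.61 and 1.34 CPM in CTL replicates 1, 2 and 3 and at 0.353, 0.458 and 0.445 CPM with TGF-β1. The groups were far apart, and TGF-β1 left 28.6% of the CTL mean (log2 fold change -1.81, SE 0.20, edgeR adjusted p = 0.00667). These are few reads, 39 to 53 counts in CTL and 11 to 15 with TGF-β1, and 35.9% of the exon bases of Rad54b are shared with other annotated genes. Rad54b was also the 1 member that passed in each of the 6 fits that left out 1 culture. Bard1 passed in 2 of those 6 fits, Fancd2 in 1, and Rad51ap1, Brca1 and Brip1 in 0.

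Rad51ap1 (ENSMUSG00000030346.15, chromosome 6, 126923050 to 126939587, minus strand) encodes a protein that stimulates strand invasion. Its level was 1.04, 1.64 and 1.34 CPM in CTL and 0.609, 0.491 and 0.652 CPM with TGF-β1, so every treated culture lay below every control (log2 fold change -1.19, SE 0.25, edgeR adjusted p = 0.0329). Its CTL counts were 34, 54 and 39. The fall was deepest within pair 2, at -1.64, and smallest within pair 1, at -0.72.

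Brca1, Bard1 and Brip1 each fell. Brca1 (ENSMUSG00000017146.11, chromosome 11, 101488764 to 101551955, minus strand), a ubiquitin ligase that acts early in recombination, was at 5.12, 5.56 and 5.13 CPM in CTL and 3.72, 2.78 and 3.62 CPM with TGF-β1. Treated cultures kept 64% of the CTL level, with replicate 2 the lowest (log2 fold change -0.64, SE 0.15, edgeR adjusted p = 0.0422). Bard1 (ENSMUSG00000026196.7, chromosome 1, 71027498 to 71103146, minus strand), the obligate partner of BRCA1 in the ligase, was at 3.14, 2.98 and 3.34 CPM in CTL and 1.80, 1.80 and 1.39 CPM with TGF-β1. The 3 CTL cultures lay within a narrow range, and the treated mean was 52.8% of theirs (log2 fold change -0.92, SE 0.16, edgeR adjusted p = 0.02). Brip1 (ENSMUSG00000034329.15, chromosome 11, 86058138 to 86201193, minus strand), the BRCA1-associated helicase, was at 2.10, 2.64 and 2.20 CPM in CTL and 1.35, 1.05 and 1.45 CPM with TGF-β1. Its groups did not overlap either, and replicate 2 was the highest of the controls and the lowest of the treated cultures (log2 fold change -0.85, SE 0.19, edgeR adjusted p = 0.0405).

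BRCA2 and PALB2 act after BRCA1, and their transcripts did not pass in either fit. Palb2, the least changed recombination member, was at 2.68, 2.79 and 2.41 CPM in CTL and 2.95, 2.06 and 2.91 CPM with TGF-β1, with overlapping groups and a log2 fold change of 0.01 (SE 0.18). Brca2 had a log2 fold change of -0.35 (SE 0.19, edgeR adjusted p = 0.282, and 0.0847 with the block), although its groups did not overlap. Rad54l, the RAD54 translocase itself, passed with the block only, at -0.50 (SE 0.13, edgeR adjusted p = 0.0196, against 0.122 without it), and 15.4% of its exon bases are shared with another gene. The 4 genes Rad51b, Rad51c, Xrcc2 and Xrcc3, whose products assist strand exchange, ranged from -0.30 to 0.25, and none of the 4 passed in either fit. Rad51b was the least abundant of all members, with 9 to 25 counts a library.

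**Figure D2:**
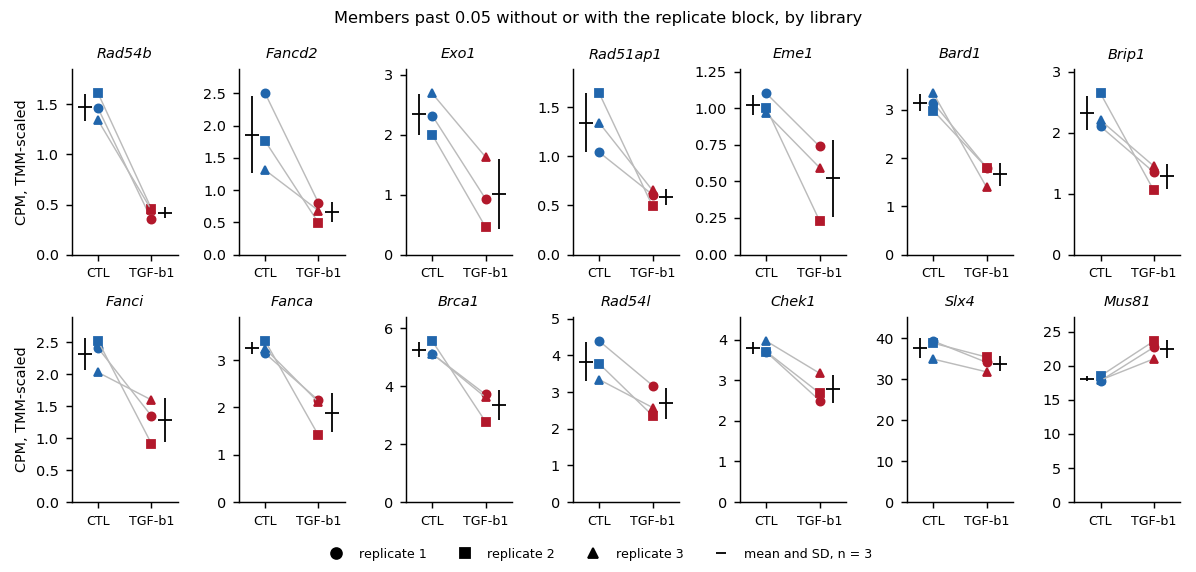
CPM after TMM scaling (y axis, from 0, its own scale for each gene) in CTL and TGF-β1 cultures for the 14 members past the threshold without or with the replicate block. Grey lines join cultures of the same replicate number, and black bars give the mean and SD of 3 cultures. All lines slope down except for Mus81, and Slx4 is the 1 gene whose groups overlap.

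Among the 6 members for end resection and helicases, none passed without the block and 1 fell with it. That gene was Exo1, the exonuclease that extends resection, at 2.32, 2.00 and 2.69 CPM in CTL and 0.930, 0.458 and 1.63 CPM with TGF-β1. The groups did not overlap, but the treated cultures were far apart, and the log2 fold change of -1.20 (SE 0.42) had an edgeR adjusted p of 0.121, against 0.00676 with the block. The 3 subunits of the MRN complex, the first sensor of broken ends, stayed between -0.14 and 0.03, and none of them passed in either fit. Mre11a, its nuclease and the least changed gene here, was at 25.0, 22.3 and 22.5 CPM in CTL and 23.3, 22.5 and 25.2 CPM with TGF-β1. These levels overlap, and the log2 fold change was 0.03 (SE 0.08). Rbbp8, the cofactor of MRE11 also known as CtIP, was at -0.13 (SE 0.07) and the helicase gene Blm at -0.08 (SE 0.11).

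Of the 11 Fanconi anemia members, Fancd2 fell, Fanci and Fanca joined it with the block, and none rose. Fancd2 (ENSMUSG00000034023.15, chromosome 6, 113531682 to 113597017, plus strand) was at 2.50, 1.76 and 1.31 CPM in CTL and 0.802, 0.491 and 0.682 CPM with TGF-β1. The CTL cultures spread widely, yet the lowest of them lay above the highest treated culture, and TGF-β1 left 35.5% of the mean (log2 fold change -1.49, SE 0.31, edgeR adjusted p = 0.0339). Fanci, whose product is clamped on DNA with FANCD2, was at 2.41, 2.52 and 2.03 CPM in CTL and 1.35, 0.916 and 1.60 CPM with TGF-β1. Its groups did not overlap (log2 fold change -0.85, SE 0.24, edgeR adjusted p = 0.0707, and 0.0203 with the block), and 16% of its exon bases are shared with other genes. Both genes of the clamp were thus lower in the blocked fit.

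The core complex is the ubiquitin ligase for that clamp. Of its 8 members, 1 fell with the block and none without it, over a range of -0.79 to 0.01. Fanca was at 3.14, 3.40 and 3.24 CPM in CTL and 2.15, 1.41 and 2.11 CPM with TGF-β1. Its controls were close together and its treated cultures all lower (log2 fold change -0.79, SE 0.19), with an edgeR adjusted p of 0.0505 without the block and 0.0102 with it. Fance, a core subunit, was at 18.9, 18.9 and 19.3 CPM in CTL and 19.5, 18.9 and 18.9 CPM with TGF-β1, and with Fancf it showed the smallest log2 fold change of the Fanconi members at 0.01 (SE 0.06). Fancl, the catalytic subunit, was at -0.20 (SE 0.08, edgeR adjusted p = 0.161, and 0.113 with the block), and Fancc at -0.28 (SE 0.10, edgeR adjusted p = 0.113, and 0.0532 with the block), both with groups that did not overlap. The ubiquitin-conjugating enzyme Ube2t, which works with FANCL, was at 0.21 (SE 0.27) and did not pass.

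Of the 3 nuclease members 1 rose, and the other 2 fell with the block. Mus81 (ENSMUSG00000024906.8, chromosome 19, 5482345 to 5488402, minus strand), the catalytic subunit that cuts branched DNA, was at 17.8, 18.5 and 17.9 CPM in CTL and 22.7, 23.6 and 21.0 CPM with TGF-β1. Every treated culture was above every control, a rise to 124.2% of the CTL mean (log2 fold change 0.31, SE 0.07, edgeR adjusted p = 0.0364). Its call was lost when libraries were scaled by their totals only (edgeR adjusted p = 0.0599), without a filter beyond 1 count, and in all 6 fits that left out 1 culture, although the log2 fold change stayed between 0.27 and 0.36 in those 6.

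Eme1, which encodes a partner of MUS81 in cutting, was at 1.10, 1.00 and 0.964 CPM in CTL and 0.738, 0.229 and 0.593 CPM with TGF-β1. The log2 fold change was -0.96 (SE 0.38, edgeR adjusted p = 0.16, and 0.0413 with the block). Only 7 counts were behind the replicate 2 treated value, and 10.7% of the exon bases of Eme1 are shared with neighbours. Slx4, the scaffold that holds these nucleases, was at 39.3, 38.8 and 34.9 CPM in CTL and 34.1, 35.4 and 31.8 CPM with TGF-β1. Its groups overlapped, but each pair fell by a similar amount, and the log2 fold change of -0.16 (SE 0.07, edgeR adjusted p = 0.211) passed with the block at 0.0444.

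Neither mismatch repair member passed in either fit. Msh6, whose product recognises mismatches, was at 67.1, 68.2 and 61.3 CPM in CTL and 67.9, 76.5 and 66.5 CPM with TGF-β1. The groups overlapped at a log2 fold change of 0.10 (SE 0.07). Pms2, which encodes a subunit that nicks the new strand, was at 0.15 (SE 0.12), and its groups overlapped too.

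Of the 5 checkpoint members none passed without the block, and Chek1 fell with it. Chek1, the kinase that ATR activates at stalled forks, was at 3.69, 3.70 and 3.96 CPM in CTL and 2.50, 2.68 and 3.17 CPM with TGF-β1. Its groups did not overlap, and treated cultures kept 73.7% of the CTL mean (log2 fold change -0.44, SE 0.14, edgeR adjusted p = 0.0969, and 0.0292 with the block). The upstream kinase Atr was at 40.6, 33.6 and 40.5 CPM in CTL and 37.7, 32.2 and 41.1 CPM with TGF-β1, and its activator Topbp1 was at 56.4, 54.4 and 62.3 CPM and then 58.3, 50.8 and 58.9 CPM. Both overlapped between groups and were lowest in replicate 2 of each group, with log2 fold changes of -0.05 (SE 0.12) for Atr and -0.04 (SE 0.08) for Topbp1.

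ATM and CHEK2 answer to broken ends. Atm was at 32.1, 32.7 and 30.9 CPM in CTL and 35.8, 29.3 and 35.7 CPM with TGF-β1, with a log2 fold change of 0.08 (SE 0.09) and an edgeR adjusted p of 0.633, or 0.516 with the block. Without both replicate 2 cultures and with the block, Atm passed at 0.18 (edgeR adjusted p = 0.0359). Its target kinase Chek2 was at 10.9, 8.23 and 8.61 CPM in CTL and 11.4, 8.57 and 8.98 CPM with TGF-β1. Replicate 1 was the highest culture of each group, and the ratio within each pair was 0.06 to 0.07 on the log2 scale, without passing (edgeR adjusted p = 0.832, and 0.58 with the block).

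The 6 members that fell without the block all had levels under 1 CPM per kb of exon. Per kb of exon in CTL cultures, Msh6 stood highest at 15.1 ± 0.859 CPM per kb (SD, n = 3), followed by Rad50 at 10.1 ± 0.968 and Nbn at 9.54 ± 0.657, and the ranges of Rad50 and Nbn given by these SDs overlap. Per kb of the longest transcript Msh6 was again highest, at 15.4, but Topbp1 came next at 11, up from 5.14 per kb of exon, ahead of Rad50 at 10.6 and Nbn at 9.54. Per kb of exon, Brca1 was at 0.618 ± 0.0290 CPM per kb, Bard1 at 0.557 ± 0.0323, Rad54b at 0.255 ± 0.0231 and Fancd2 at 0.234 ± 0.0758. Of the 21 members under 1 CPM per kb over the 6 libraries, 6 fell (28.6%, and 12 or 57.1% with the block), with a median log2 fold change of -0.50. Among all genes tested under that level, 9.85% fell (23.5% with the block) and the median was -0.17. Of the 18 members at 1 CPM per kb or more, none fell without the block, 1 (Slx4) fell with it, and Mus81 rose, with a median of -0.04, against 5.74% of all such genes lower (17.9% with the block) and a median of 0.02.

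**Figure D3:**
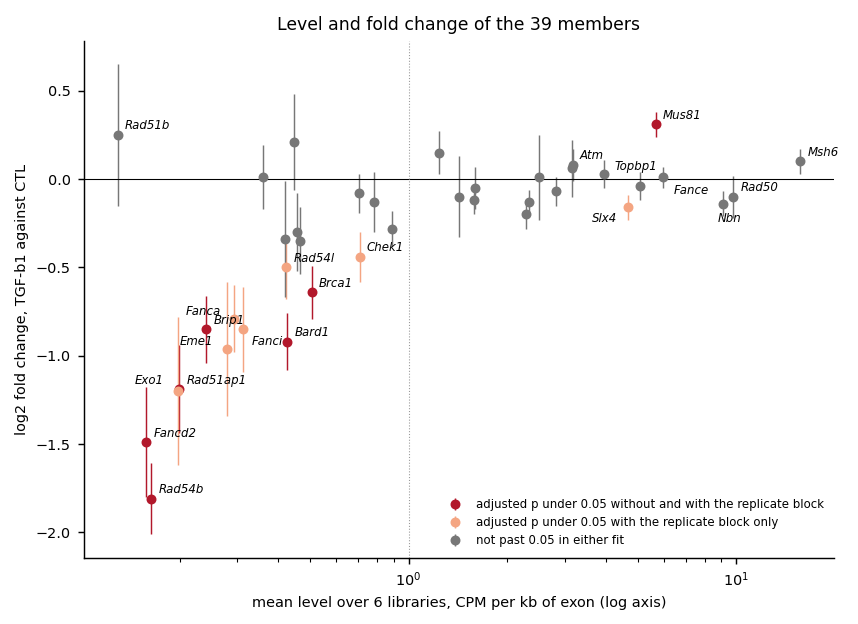
Log2 fold change with 1 SE (y axis) against the mean level over the 6 libraries in CPM per kb of exon (x axis, log scale) for the 39 members. Genes lower without the block lie left of the dotted line at 1 CPM per kb, and the abundant members such as Msh6, Rad50, Nbn and Topbp1 lie near 0.

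Other genes of the same pathways were read from a list by name. Of 55 listed, 53 were tested, with a median of -0.06. Of these, 1 fell (1.89%) and 1 rose, where 6.69% of all genes were lower and 5.00% higher. With the block 11 fell (20.8%) and 1 rose, where 19.1% of all genes were lower and 15.1% higher. Clspn, which encodes the CHEK1 adaptor claspin, fell from 4.39, 5.19 and 2.89 CPM to 1.32, 1.37 and 1.07 CPM (log2 fold change -1.73, SE 0.26, edgeR adjusted p = 0.0128). Rmi2, a BLM cofactor, had the next largest difference at -0.87 (SE 0.41) and did not pass. The gene that rose was Sfr1 at 0.18 (SE 0.04, edgeR adjusted p = 0.0474), named after its value was seen.

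Lists for other repair pathways and p53 targets had shares of calls to be read against the 6.69% lower and 5.00% higher of all genes (19.1% and 15.1% with the block). None of 15 end joining genes passed, and with the block Polq, the polymerase of an alternative end joining route, rose at 0.43 (SE 0.19, edgeR adjusted p = 0.194, and 0.04996 with the block), while Paxx was at -0.25 (SE 0.15). Of 20 base excision and strand break genes, the glycosylase gene Neil3 fell, from 0.976, 0.911 and 0.551 CPM to 0.257, 0.0981 and 0.267 CPM (log2 fold change -1.95, SE 0.41, edgeR adjusted p = 0.0339), and the gap-filling polymerase gene Polb rose by 0.58 (SE 0.08, edgeR adjusted p = 0.0102). With the block, 3 fell and 5 rose. Of 21 nucleotide excision genes none fell in either fit and 1 rose, 3 with the block. Rad23b, a damage recognition partner of XPC, was that gene at 0.27 (SE 0.06, edgeR adjusted p = 0.0364), and Ddb2 was at -0.28 (SE 0.30). Of 20 p53 target genes 1 fell and 1 rose, and 3 fell and 5 rose with the block. Mdm2, the ubiquitin ligase for p53, rose by 0.50 (SE 0.07, edgeR adjusted p = 0.0104), Bbc3, named after its value was seen, fell by 0.38 (SE 0.06, edgeR adjusted p = 0.0149), and Sesn1 passed with the block only (-0.57, edgeR adjusted p = 0.134, and 0.00335 with the block).

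Cell cycle genes fell in the same comparison. All 22 mitosis genes fell, with a median log2 fold change of -1.78, led by the proliferation marker Mki67 at -2.38 (SE 0.28, edgeR adjusted p = 0.00787) and cyclin A2 (Ccna2) at -2.28 (SE 0.20, edgeR adjusted p = 0.00379). Their summed level was 131.0 to 184.5 CPM in CTL and 48.1 to 58.7 CPM with TGF-β1, with no overlap. Of 26 S phase genes, 8 fell and none rose, and 19 fell and 1 rose with the block, at a median of -0.52. Leaving out CTL or TGF-β1 replicate 1 without the block reduced the calls to 1 S phase gene and 11 mitosis genes, leaving out replicate 2 of either group to 3 and 17, and leaving out CTL or TGF-β1 replicate 3 to 7 and 21 or to 6 and 18. The replication licensing gene Cdc6 was at -1.64 (SE 0.26, edgeR adjusted p = 0.0146), and the primase gene Prim1 at -1.01 (SE 0.22, edgeR adjusted p = 0.0378). The S phase genes summed to 412.4 to 503.8 CPM in CTL and 366.4 to 380.2 CPM with TGF-β1, and the members to 524.5 to 542.2 CPM and 483.8 to 519.8 CPM. The summed members stood at 1.04 to 1.27 times the summed S phase genes in CTL and at 1.31 to 1.41 times with TGF-β1. The members' sum is weighted to abundant genes such as Msh6 and Topbp1, at CTL means of 65.5 and 57.7 CPM. Members that fell without the block had CTL means from 1.34 CPM (Rad51ap1) to 5.27 CPM (Brca1), so this ratio says little about them. The part of these lists, of the markers given above and of the replicate 2 cultures in the members' changes was not tested. Without both replicate 2 cultures and with the block, 9 members fell and 2 rose, where 17% of all genes fell and 14.3% rose.

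**Figure D4:**
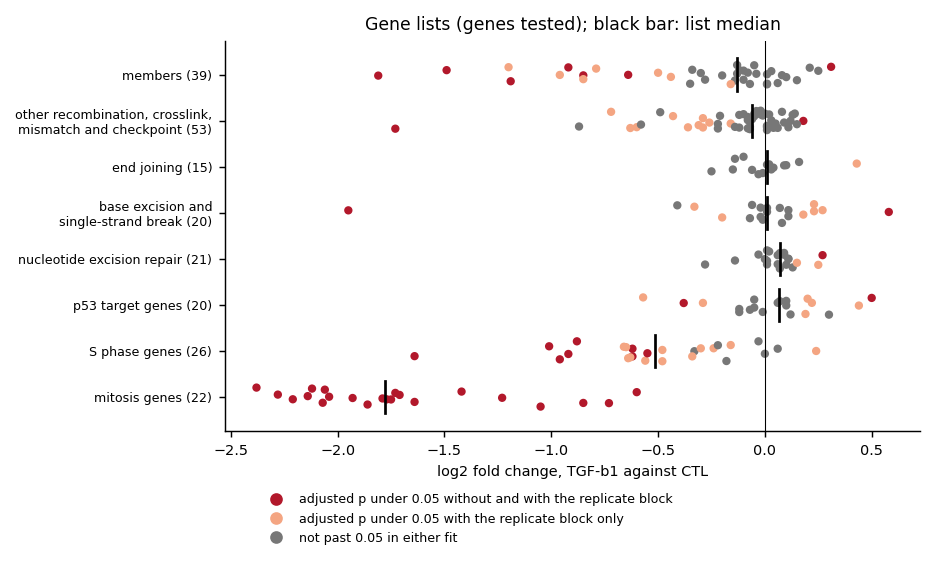
Log2 fold change, TGF-β1 against CTL (x axis), of each gene tested in the members and in 7 other lists, 1 point per gene, with the list median as a black bar and colours as in the plot by role. The members' median of -0.13 lies between those of the other repair and p53 lists, at -0.06 to 0.07, and those of the S phase and mitosis lists, at -0.52 and -1.78.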

How the data were processed

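RNA from 3 CTL and 3 TGF-β1–treated RTEC cultures was sequenced by the authors as poly(A) libraries. The authors deposited whole-number read counts per gene without normalization, and their processing notes name Trim Galore, STAR 2.4.1d, HTSeq 0.6.1 and GRCm38. The strand setting and annotation release are not given in the sources used here, so reads on overlapping genes may be assigned uncertainly. Reads on more than 1 gene (1.88 to 1.97% beside the counted reads) or at more than 1 place (18.7 to 19.4%) and reads on no gene (4.16 to 4.93%) were set apart by the counting and were not used.

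Symbols, positions and exon lengths came from GENCODE M21, which matched 46005 of 46517 identifiers, and promoters from RefSeq (GRCm38.p6). Counts were fitted in R 4.3.3 with edgeR 4.0.16 (filterByExpr, TMM, robust quasi-likelihood test, two-sided), with Benjamini-Hochberg adjustment over the 15862 genes tested and a threshold of 0.05. Standard errors were taken from the F statistic. Ratios within pairs added 0.05 CPM. Groups and replicate numbers came from the labels. Deviations from the group means correlated at 0.34, 0.684 and 0.572 for same-numbered cultures (-0.617 to 0.215 for the rest), so the numbers paired the cultures, and this check is the source of the pairing. The floor of 3 counts covers counting error only, while SDs and standard errors hold the spread between cultures.

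Alternatives were the replicate block, RLE, library size only, DESeq2 1.42.0, voom of limma 3.58.1, other filters, leaving out each culture or both cultures of a number and, added after seeing the data, the last with the block. The members and lists were chosen with earlier results of these data known. Members past the threshold in either fit (at most 5 per role), the least changed member of each role and all checkpoint members are given in every library, and of each other list the 2 genes with the largest fold change are named, except 1 gene that is not reported here. Figures were drawn with matplotlib 3.10.9.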

Additional observations from a re-analysis of the deposited data

How the results depend on the processing

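The replicate block moved the members lower from 6 to 13, all genes lower to 3037 and higher to 2388, and the other pathway genes lower from 1 to 11. It ended no member's call. With library sizes only, the median of all genes shifted to -0.08, no member was higher, 508 genes were higher and 4 other pathway genes were lower. Small positive values then turned negative, to -0.066 for Palb2, -0.046 for Mre11a, -0.067 for Fance, -0.063 for Fancf and -0.0091 for Chek2. Palb2 was also -0.0098 with voom and -0.0017 with the block. DESeq2 gave 1201 genes higher and 3 other pathway genes lower. Without a filter beyond 1 count no member was higher. With RLE or at least 10 counts in every library, counts of calls stayed within 1.5 times, except that the latter removed the 1 lower base excision gene.

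Over the fits that left out cultures, members lower ranged from 0 to 14 and members higher from 0 to 2, all genes lower from 0 to 3254 and higher from 0 to 2581, and other pathway genes lower from 0 to 14. Without both replicate 1 cultures and without the block, 0 of 15961 genes passed in edgeR, with 1938 genes and 7 members at an unadjusted p under 0.05. The members' median ranged from -0.20 to -0.10. The causes were not tested.

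Directions also turned in these fits, with log2 fold changes from -0.13 to 0.04 for Atr, -0.069 to 0.20 for Chek2, -0.74 to 0.11 for Fancb, -0.013 to 0.027 for Fance, -0.15 to 0.29 for Fancf, -0.042 to 0.093 for Mre11a, -0.13 to 0.20 for Palb2, -0.0084 to 0.25 for Pms2, -0.18 to 0.00043 for Rad50, -0.084 to 0.52 for Rad51b, -0.09 to 0.017 for Topbp1, -0.27 to 0.033 for Xrcc2 and -0.30 to 0.064 for Xrcc3. Of these 13, only Fancb passed in any of them, without both replicate 3 cultures and with the block (edgeR adjusted p = 0.0329). Depth limits the low members most, since 2 of the 39 had fewer than 10 counts in a library.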
